A study of Rattus norvegicus with 15 samples.

Results

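Reactive astrocyte genes are transcripts that astrocytes make in larger amounts after injury or inflammation, and 10 of them were followed across all libraries of the study: Gfap, Vim, Timp1, Lcn2, Serpina3n, Cp, Cd44, S1pr3, Osmr and Steap4. They were taken by name from a list that was chosen with earlier results of these data known. Counts among them are therefore not an independent test. Of the 10, 9 had a row among the 22314 genes of the count table, and all 9 were among the 14880 genes that passed the filter on low counts. Serpina3n, a secreted serine protease inhibitor, had no row under its symbol or its RefSeq synonyms and was not analysed here.

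All 15 libraries were made from the dorsal CA1 field of the hippocampus of male wild-type (WT) Sprague-Dawley rats aged 8 to 9 weeks, in 3 groups of 5. The first group was labelled Rnf20-siRNA and trained in contextual fear conditioning (replicates 4, 8, 14, 18 and 20), the second was labelled Scr-siRNA, a scrambled control, and trained (replicates 5, 6, 10, 15 and 16), and the third was Scr-siRNA and naive (replicates 1, 2, 9, 11 and 12). All animals had a siRNA injected by stereotaxic surgery into dorsal CA1, so an injection is common to every group. The study's design text puts training 5 days after it. For naive animals no time from injection to dissection is given. Whether naive and trained groups were matched in time since surgery is therefore not known. A naive group with Rnf20 siRNA and a group with no injection are not among the samples used here. The time from training to dissection and whether each library came from an animal of its own are not given in the labels, so each p-value below speaks of the spread among libraries, which may be technical.

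Total counts were 12537250 to 20644425 per library. Rnf20, the target of the siRNA and a subunit of the enzyme that attaches ubiquitin to histone H2B, was at 38.3 to 44.6 CPM (counts scaled to a common library size) in the libraries labelled Rnf20-siRNA, 36.4 to 48.5 CPM in scrambled trained libraries and 39.1 to 44.7 CPM in naive libraries. The target was not lower under its label (log2 fold change -0.04 against scrambled trained libraries, SE 0.08, edgeR adjusted p = 0.945), and the group is called Rnf20-labelled for that reason. The homeostatic astrocyte markers, 18 genes for glutamate uptake, potassium buffering and other duties of resting astrocytes, were present in every library. Their summed level was 8752 to 11278 CPM in Rnf20-labelled, 8131 to 11523 CPM in scrambled trained and 9247 to 10943 CPM in naive libraries, and none was at 0. In tissue that holds all brain cell types, fewer cells of a type and less RNA per cell cannot be told apart.

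Astrocytes become reactive when signals such as cytokines of the interleukin 6 family, interleukin 1 and tumour necrosis factor reach them, largely through the transcription factors STAT3 and NF-kB. Reactive cells thicken their intermediate filaments, made of GFAP and vimentin, secrete proteins that act on matrix, iron and immune cells, and change the receptors on their surface. In the hippocampus such a reaction follows seizures, ischaemia, infection and physical injury. Several of the 9 genes are also made by microglia, immune, blood vessel or choroid plexus cells, among them Vim, Timp1, Cd44 and Cp.

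The sequences around the gene starts were compared because 8 of the 9 transcripts varied closely together between libraries. Promoter windows of 250 bases before to 50 bases after the annotated start came from RefSeq on the rat assembly GRCr8, and all 10 genes had one. Both strands were searched for the letters TTCNNNGAA (STAT), TGANTCA (AP-1), TTGCNNCAA (C/EBP) and the NF-kB letters (GGG, any 2 bases, TTTCC). These stood in 8.87%, 7.33%, 2.17% and 1.53% of all 33469 windows of 300 bases. The genes that held one were Steap4, with a STAT match and an NF-kB match, Osmr, with an AP-1 match, and Serpina3n, with a STAT match at bases -123 to -115. The windows of Steap4 and Osmr are shown because they hold matches, and that of Timp1 because it carried the clearest group difference and held none. Capitals mark the matches, which are the NF-kB letters (reverse strand) and then the STAT letters in Steap4 and the AP-1 letters in Osmr.
Steap4: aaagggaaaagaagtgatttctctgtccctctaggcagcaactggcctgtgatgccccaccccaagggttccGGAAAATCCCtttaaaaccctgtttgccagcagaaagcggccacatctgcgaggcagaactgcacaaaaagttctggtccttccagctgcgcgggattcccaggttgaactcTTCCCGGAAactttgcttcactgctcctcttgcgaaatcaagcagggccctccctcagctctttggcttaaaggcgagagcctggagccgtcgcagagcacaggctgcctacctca
Osmr: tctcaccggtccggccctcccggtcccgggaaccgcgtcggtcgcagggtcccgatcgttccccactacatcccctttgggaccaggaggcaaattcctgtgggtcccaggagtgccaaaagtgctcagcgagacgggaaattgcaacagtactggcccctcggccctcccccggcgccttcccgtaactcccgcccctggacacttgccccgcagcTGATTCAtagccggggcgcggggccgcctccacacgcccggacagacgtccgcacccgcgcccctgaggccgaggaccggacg
Timp1: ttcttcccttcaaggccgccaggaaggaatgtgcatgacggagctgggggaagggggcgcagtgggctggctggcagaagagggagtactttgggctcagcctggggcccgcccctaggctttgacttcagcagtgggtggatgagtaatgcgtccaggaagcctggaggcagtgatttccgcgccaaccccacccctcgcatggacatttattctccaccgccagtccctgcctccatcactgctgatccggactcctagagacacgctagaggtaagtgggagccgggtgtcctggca
The STAT match of Steap4 lay at bases -66 to -58 from the start and its NF-kB match at -178 to -169, while the AP-1 match of Osmr lay at -33 to -27. With 2 of 10 windows holding the STAT letters, 1 of 10 the AP-1 letters, 1 of 10 the NF-kB letters and 0 of 10 the C/EBP letters, the matches are a description of these windows and not of binding.

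Scrambled trained libraries had higher mean levels of all 9 reactive astrocyte transcripts than naive libraries, and Rnf20-labelled trained libraries had lower means than scrambled trained libraries for all 9. None of these differences passed the adjusted threshold of edgeR's quasi-likelihood test, and the libraries within each trained group lay far apart. Timp1 was the single transcript whose scrambled trained and naive libraries did not overlap, and the single one that passed the threshold in DESeq2. Scrambled trained replicates 15 and 16 held the highest Lcn2 levels by a wide margin.

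**Figure D1:**
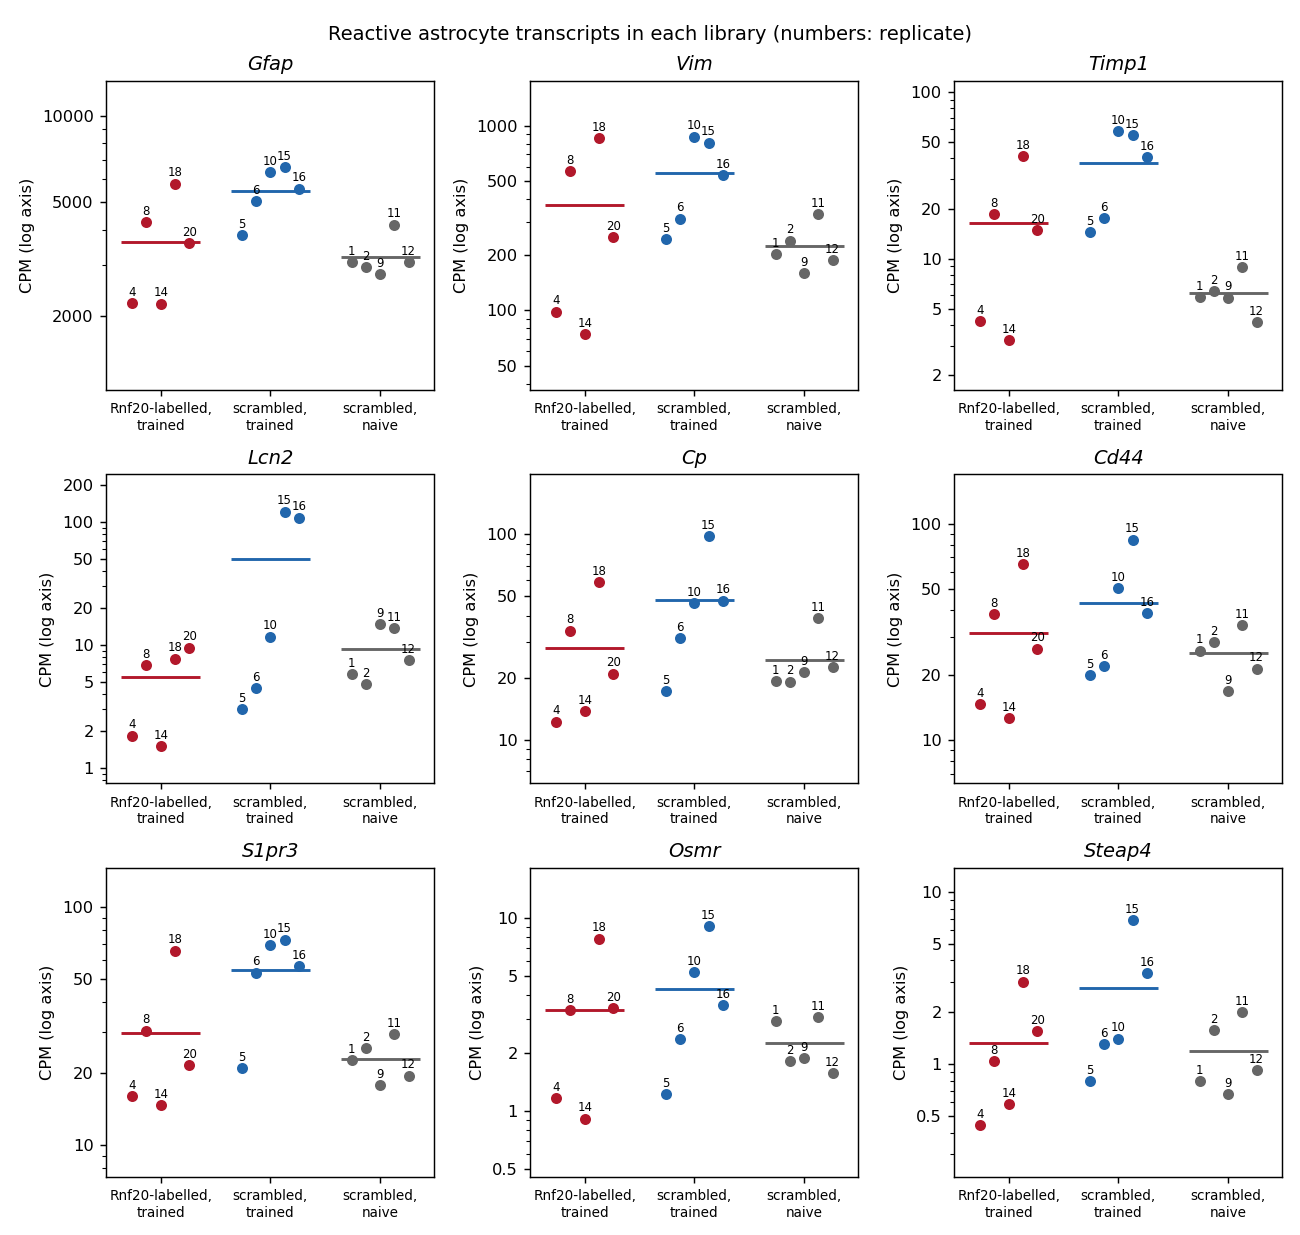
Level of each of the 9 transcripts in CPM (log axis) in every library, with Rnf20-labelled trained, scrambled trained and naive libraries from left to right. Points are libraries with their replicate number and bars are group means (n = 5). Timp1 was above the highest naive library, 8.85 CPM, in all 5 scrambled trained libraries.

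The intermediate filament genes come first. Gfap, which encodes the main filament protein of astrocytes, was at 2213, 4251, 2210, 5792 and 3580 CPM in Rnf20-labelled replicates 4, 8, 14, 18 and 20. It was at 3817, 5035, 6348, 6600 and 5564 CPM in scrambled trained replicates 5, 6, 10, 15 and 16. In naive replicates 1, 2, 9, 11 and 12 it was at 3082, 2967, 2798, 4167 and 3084 CPM. Of the scrambled trained libraries, 4 lay above the highest naive library, while the Rnf20-labelled libraries lay on both sides of the naive range, 2 above and 2 below it. Group means were 3609 ± 1507 CPM in Rnf20-labelled, 5473 ± 1116 CPM in scrambled trained and 3220 ± 542 CPM in naive libraries (SD, n = 5 each). The log2 fold change was 0.77 (SE 0.24, edgeR adjusted p = 0.380) between scrambled trained and naive libraries.

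Vim encodes vimentin, the filament protein that joins GFAP in reactive and immature astrocytes. Its level was 98.5, 568, 74.2, 858 and 249.9 CPM in Rnf20-labelled replicates 4, 8, 14, 18 and 20. Scrambled trained replicates 5, 6, 10, 15 and 16 held 243, 314, 874, 811 and 539 CPM, against 202, 239, 158, 332 and 187 CPM in naive replicates 1, 2, 9, 11 and 12. The highest Rnf20-labelled library exceeded the lowest 11.6 times, which is wider than the naive range of 2.10 times. The means were 370 ± 337, 556 ± 284 and 223 ± 67.1 CPM in Rnf20-labelled, scrambled trained and naive libraries (SD, n = 5 each), and scrambled trained against naive libraries gave a log2 fold change of 1.32 (SE 0.56, edgeR adjusted p = 0.457).

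Among the secreted proteins, Timp1, an inhibitor of matrix metalloproteinases, had the smallest p of the 9 for scrambled trained against naive libraries. Rnf20-labelled replicates 4, 8, 14, 18 and 20 held 4.21, 18.5, 3.25, 41.4 and 14.8 CPM. Scrambled trained replicates 5, 6, 10, 15 and 16 held 14.4, 17.6, 58.4, 55.5 and 40.6 CPM, against 5.89, 6.38, 5.82, 8.85 and 4.13 CPM in naive replicates 1, 2, 9, 11 and 12. The scrambled trained and naive libraries did not overlap, which 1.1% of the genes tested share in that direction, and 3 of 5 Rnf20-labelled libraries were also above the naive range. Scrambled trained over naive libraries gave 2.58 on the log2 scale (SE 0.59, 95% interval from 1.32 up to 3.85, edgeR adjusted p = 0.379). DESeq2's Wald test gave the same size, 2.58, with an adjusted p of 0.0205, and limma-voom gave an adjusted p of 0.440. Raw counts behind these values were 39 or more in Rnf20-labelled, 235 or more in scrambled trained and 58 or more in naive libraries.

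Lcn2 encodes lipocalin 2, a secreted protein that binds bacterial iron carriers and that astrocytes make in quantity under inflammation. It was at 121 and 109 CPM in scrambled trained replicates 15 and 16 and at no more than 14.7 CPM in any other library. Rnf20-labelled replicates 4, 8, 14, 18 and 20 held 1.83, 6.88, 1.5, 7.75 and 9.49 CPM. The other scrambled trained replicates, 5, 6 and 10, held 3.0, 4.44 and 11.7 CPM, and naive replicates 1, 2, 9, 11 and 12 held 5.76, 4.80, 14.7, 13.7 and 7.55 CPM. Apart from replicates 15 and 16, the trained libraries of both kinds lay within or below the naive range. On the log2 scale the fold change came to -3.18 (SE 0.92, 95% interval from -5.13 up to -1.24, edgeR adjusted p = 0.832) for Rnf20-labelled against scrambled trained libraries, and 2.42 (SE 0.87, edgeR adjusted p = 0.411) for scrambled trained against naive libraries. Without replicates 15 and 16, left out after their values were seen, these became -0.21 and -0.53, so both rest on those libraries.

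Cp encodes ceruloplasmin, a copper-binding ferroxidase that helps cells export iron. It ranged from 12.2 to 58.6 CPM in Rnf20-labelled, 17.3 to 98.0 CPM in scrambled trained and 19.1 to 39.2 CPM in naive libraries. Scrambled trained replicate 15 was the highest of all 15 and Rnf20-labelled replicate 4 the lowest. The groups overlapped, and scrambled trained against naive libraries gave a log2 fold change of 0.99 (SE 0.45, edgeR adjusted p = 0.488), which was 0.56 without replicate 15.

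The 4 remaining genes encode membrane proteins. S1pr3, a receptor for the lipid sphingosine 1-phosphate, was at 16.1, 30.2, 14.7, 65.6 and 21.7 CPM in Rnf20-labelled replicates 4, 8, 14, 18 and 20. It was at 21.1, 53.0, 69.3, 72.9 and 56.3 CPM in scrambled trained replicates 5, 6, 10, 15 and 16, against 22.8, 25.6, 17.8, 29.2 and 19.6 CPM in naive replicates 1, 2, 9, 11 and 12. All scrambled trained libraries but replicate 5 lay above the naive range, with a log2 fold change of 1.25 (SE 0.38, edgeR adjusted p = 0.379). Cd44, a receptor for hyaluronan in the matrix, was at 12.7 to 65.0 CPM in Rnf20-labelled, 20.0 to 84.6 CPM in scrambled trained and 16.8 to 34.1 CPM in naive libraries.

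Osmr, the receptor subunit for oncostatin M, a cytokine of the interleukin 6 family, was at 0.92 to 7.81 CPM in Rnf20-labelled, 1.23 to 9.04 CPM in scrambled trained and 1.57 to 3.07 CPM in naive libraries. Steap4, a membrane reductase for iron and copper, was at 0.44 to 3.01, 0.80 to 6.90 and 0.67 to 2.01 CPM in Rnf20-labelled, scrambled trained and naive libraries. Both were thinly covered, with as few as 11 counts of Osmr and 7 counts of Steap4 in a library. For scrambled trained against naive libraries the log2 fold changes were 0.77 for Cd44 (SE 0.44), 0.94 for Osmr (SE 0.55) and 1.21 for Steap4 (SE 0.60), with edgeR adjusted p-values of 0.586, 0.60 and 0.522. Without scrambled trained replicate 15, the highest library for all 3 genes, they were 0.39 for Cd44, 0.47 for Osmr and 0.53 for Steap4. In each of the 3 genes the groups overlapped.

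The comparison of scrambled trained with naive libraries asks which transcripts differ after contextual fear conditioning. All 9 log2 fold changes were above 0, as were 47.2% of the 14880 genes tested, and their median was 1.21 against -0.01 over all genes tested. At an adjusted p under 0.05, edgeR called 0 of 9, and 0% of all genes in either direction. At an unadjusted p under 0.05 it found 6 of 9 higher, against 6.62% of all genes (DESeq2 7 of 9 against 7.17%, limma-voom, which called 0 of 9 and 0% after adjustment, 3 of 9 against 5.65%). DESeq2 called 1 of 9 at an adjusted p under 0.05, which was Timp1, against 0.276% of all genes called higher. The median became 0.70 without scrambled trained replicate 15, with 3 of 9 at that unadjusted p against 3.62% of all genes, and 0.39 without replicates 15 and 16, again with 3 of 9 against 2.59%.

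**Figure D2:**
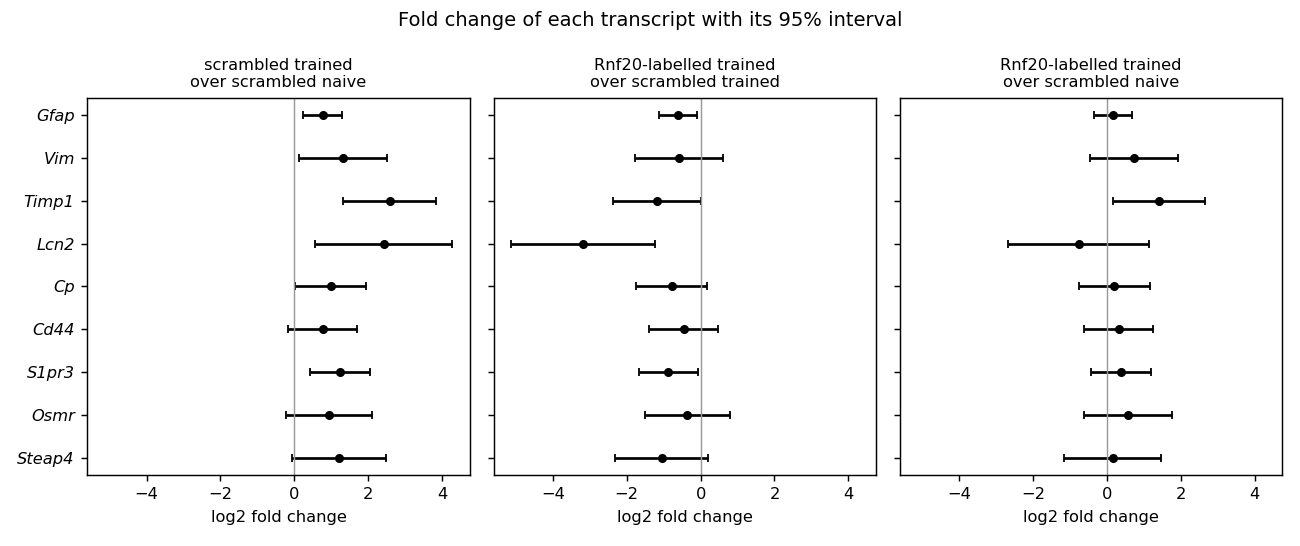
Log2 fold change of each transcript with its 95% interval, for scrambled trained over naive (left), Rnf20-labelled over scrambled trained (middle) and Rnf20-labelled over naive libraries (right). All 9 points lie above 0 on the left and all 9 below 0 in the middle, and the intervals of 6 and 3 of them leave 0 out.

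Rnf20-labelled trained libraries were set against scrambled trained libraries to ask what the Rnf20 siRNA changes in trained animals. All 9 log2 fold changes were below 0, while 50.7% of all genes tested were above it, and the median was -0.78 against 0.00 over all genes tested. No transcript was called by edgeR, DESeq2 or limma-voom at an adjusted p under 0.05, where these called 0% of all genes lower, and the 2 groups overlapped for all 9, while 0.262% of all genes lay lower without overlap. At an unadjusted p under 0.05, edgeR found 3 of 9 lower against 2.98% of all genes, DESeq2 3 of 9 against 3.49% and limma-voom 3 of 9 against 3.25%. By edgeR these were Lcn2, Gfap (-0.60, SE 0.24, edgeR adjusted p = 0.832) and S1pr3 (-0.88, SE 0.38, edgeR adjusted p = 0.832), and Timp1 was at -1.18 (SE 0.56, edgeR adjusted p = 0.832). The other 5 fold changes were -0.59 for Vim, -0.78 for Cp, -0.46 for Cd44, -0.37 for Osmr and -1.06 for Steap4. Without scrambled trained replicate 15 these 5 were -0.41, -0.34, -0.055, 0.11 and -0.36 in the same order, and without Rnf20-labelled replicate 18 they were -1.17, -1.26, -0.92, -0.98 and -1.63.

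These counts turned on single libraries. With Rnf20-labelled replicate 18 left out, 8 of 9 transcripts were lower at an unadjusted p under 0.05 in Rnf20-labelled than in scrambled trained libraries, at a median of -1.26, while 8.5% of all genes were so against 2.98% with all libraries. Without scrambled trained replicate 5 it was 6 of 9 against 5.73% of all genes, and without Rnf20-labelled replicate 4, 14 or 20, or scrambled trained replicate 10 or 15, it was 1 of 9 against 1.13% to 2.57%, the median being -0.41 without replicate 15. Without scrambled trained replicates 15 and 16 together it was 0 of 9 against 0.929%, with a median of -0.21. The scrambled trained group serves in both comparisons, so their opposite signs are not separate observations.

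In the median log2 fold change of the 9 transcripts, Rnf20-labelled trained libraries differed less from naive libraries than scrambled trained libraries did. Rnf20-labelled libraries were far more spread than naive libraries and the intervals were wide, so closeness to naive libraries is not shown. Of the 9 log2 fold changes, 8 were above 0, against 50.6% of all genes, with a median of 0.31. At an adjusted p under 0.05, edgeR, DESeq2 and limma-voom called 0 of 9, against 0%, 0.00672% and 0% of all genes called higher. At an unadjusted p under 0.05, edgeR found 1 of 9 higher against 1.21% of all genes, DESeq2 1 of 9 against 1.39% and limma-voom 0 of 9 against 0.907%. In edgeR it was Timp1 (1.40, SE 0.59, edgeR adjusted p = 1.00), with 3 libraries above and 1 below the naive range. The other values ran from -0.76 for Lcn2 to 0.73 for Vim. Leaving out Rnf20-labelled replicate 18 gave a median of -0.13, 2 of 9 were above 0 against 51.9% of all genes, and Timp1 was at 0.71.

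The transcripts varied widely between libraries of one group. In the Rnf20-labelled group, the SD of log2 CPM had a median of 0.99 over the 9 transcripts and 0.23 over all genes tested. In scrambled trained libraries the medians were 0.91 and 0.24, and in naive libraries 0.41 and 0.17. All 9 transcripts exceeded the median of all genes in each of the 3 groups. Rnf20-labelled replicates 4 and 14 were among the 3 lowest of 15 libraries for 9 of 9 transcripts, below every naive library for 8 and 9 of them. At the other end, Rnf20-labelled replicate 18 was above every naive library for 8 of 9, the exception being Lcn2, and scrambled trained replicates 15 and 16 were so for 9 of 9. Scrambled trained replicate 5 exceeded every naive library for Timp1 alone.

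**Figure D3:**
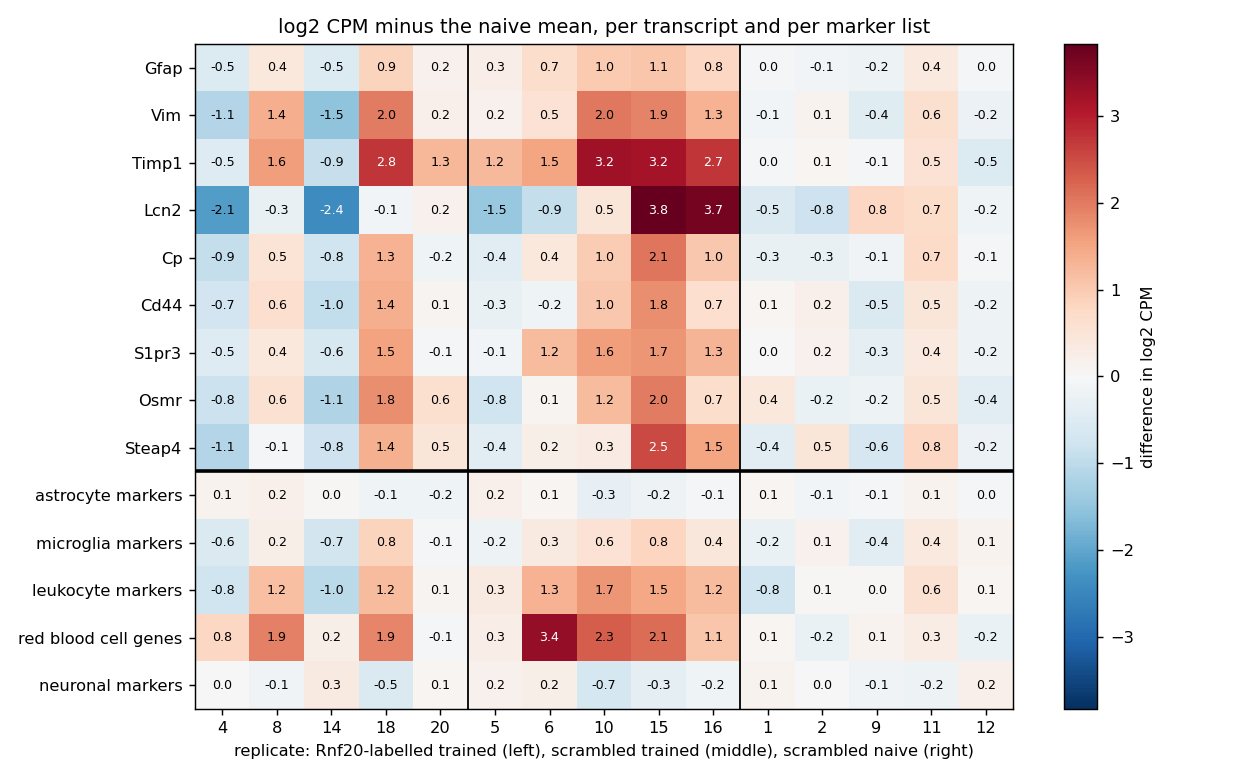
Log2 difference of each transcript (rows above the line) in each library (columns) from the mean log2 CPM of the naive libraries, with Rnf20-labelled, scrambled trained and naive libraries from left to right. Rows below the line give the same difference for the mean log2 CPM of astrocyte, microglia, leukocyte, red blood cell and neuronal marker lists. Averaged over the 9 transcripts, Rnf20-labelled replicates 4 and 14 stood at -0.93 and -1.07 and replicate 18 at 1.43, and scrambled trained replicates 10, 15 and 16 at 1.32, 2.22 and 1.52.

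Averaged over the 9 transcripts, the log2 difference from the naive mean was -0.93, 0.58, -1.07, 1.43 and 0.31 in Rnf20-labelled replicates 4, 8, 14, 18 and 20. It was -0.20, 0.40, 1.32, 2.22 and 1.52 in scrambled trained replicates 5, 6, 10, 15 and 16, and -0.23 to 0.57 in naive libraries. Each trained group thus held libraries both above and below the naive mean.

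The 8 transcripts other than Lcn2 followed each other closely across libraries. Over the 28 pairs of the 8 other transcripts, Pearson's r of log2 CPM over 15 libraries was 0.77 to 0.96 with a median of 0.90, and Spearman's rho was 0.74 to 0.96. The largest adjusted permutation p was 0.000733 for r and 0.00271 for rho, adjusted over 36 pairs with 100000 resamples. The resamples shuffled libraries across the 3 groups, so differences between groups enter these p-values. No r over pairs of all genes is given for comparison. With the 2 libraries farthest from the median left out, r was 0.73 to 0.94, and after subtracting group means it was 0.74 to 0.97. Lcn2 fell into 2 clusters of libraries, so its relations were taken over the 13 libraries below 15 CPM, with r of 0.41 to 0.67, rho of 0.35 to 0.70 and adjusted permutation p-values for r of 0.0149 to 0.165. This left out scrambled trained replicates 15 and 16, in which all 9 transcripts were above every naive library. The r values of Lcn2 are therefore not comparable with those of the 28 pairs. Of the 8 relations of Lcn2, 4 had an adjusted p under 0.05 for r, and with the 2 farthest libraries left out r was 0.05 to 0.42, so they rest on those libraries.

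**Figure D4:**
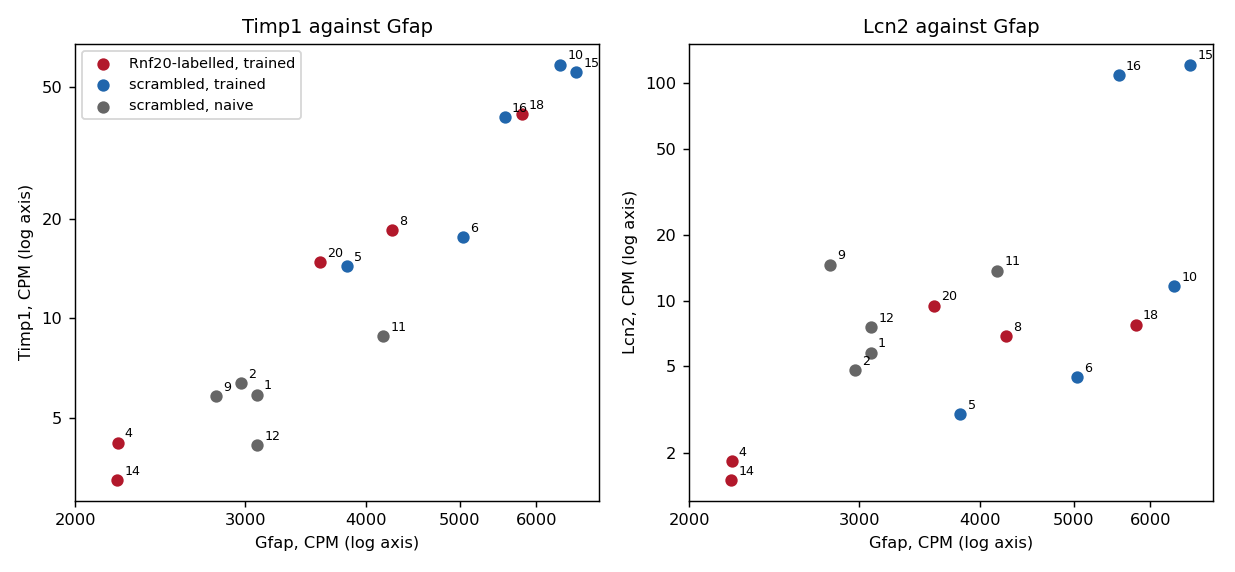
Timp1 and Lcn2 (vertical axes, CPM) against Gfap (horizontal axis, CPM), all axes on a log scale, 1 point per library with its replicate number. Timp1 follows Gfap through all 15 libraries (r = 0.96). Lcn2 is above 100 CPM in scrambled trained replicates 15 and 16 and at most 14.7 CPM in the others.

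The gene outside the 10 whose log2 CPM was most like that of each transcript was sought among 14077 candidates over all 15 libraries. Gfap was nearest to Rab32, a small GTPase (r = 0.97, rho = 0.95), and Vim to S100a4, a calcium-binding protein (r = 0.98). The nearest to Timp1 was Fabp5, a fatty acid carrier (r = 0.98), to Cp Tbxas1, the thromboxane synthase (r = 0.97), and to Cd44 Vat1 (r = 0.98). S1pr3 was nearest to Arpc1b, a subunit of the Arp2/3 actin complex (r = 0.96), Osmr to Lrrc42 (r = 0.96) and Steap4 to Nepro (r = 0.94). Lcn2 was nearest to Cxcl10, a chemokine, with r of 0.90 in which the same 2 libraries were highest, and Cxcl10 was at 25.0 and 10.6 CPM in scrambled trained replicates 15 and 16 and at most 3.99 CPM elsewhere. Because these genes were picked as the highest of many, their r values carry no test.

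Setting each transcript against the 18 homeostatic astrocyte markers asks whether its level per level of astrocyte marker differs. The log2 ratio to their geometric mean exceeded that of naive libraries in scrambled trained libraries by 2.44 for Timp1 (two-sided exact permutation p = 0.00794, the smallest that 5 against 5 libraries allow), by 0.81 for Gfap (p = 0.0159), by 1.25 for Vim (p = 0.0397) and by 1.20 for S1pr3 (p = 0.0476). After adjustment over 27 tests of 9 transcripts in 3 comparisons these were 0.214, 0.214, 0.321 and 0.321 by the same exact test, and none of the 27 was under 0.05. Even at the smallest p that 5 against 5 libraries allow, a single transcript could not pass this adjustment alone. The lack of a pass therefore says little. Against only 3 of the markers, the differences were 2.43 for Timp1 and 0.81 for Gfap. The markers themselves had median log2 fold changes of 0.06 for Rnf20-labelled against scrambled trained libraries and -0.04 for scrambled trained against naive libraries.

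Transcripts of other cells also differed between libraries. The summed level of 14 microglial markers was 600 to 1755 CPM in Rnf20-labelled, 816 to 1811 CPM in scrambled trained and 721 to 1308 CPM in naive libraries. It was lowest in Rnf20-labelled replicates 14 and 4, at 600 and 659 CPM, and highest in scrambled trained replicate 15 and Rnf20-labelled replicate 18, at 1811 and 1755 CPM. Of 13 tested, 11 were above 0 in scrambled trained against naive libraries (median 0.48), as were 47.2% of all genes. In Rnf20-labelled against scrambled trained libraries 12 were below 0 (median -0.44), while 50.7% of all genes were above it. None had an adjusted p under 0.05 in edgeR in either comparison. With the microglial score as a covariate the median of the 9 transcripts was 0.37 in scrambled trained against naive libraries and -0.24 in Rnf20-labelled against scrambled trained libraries. Among these markers, Aif1 and Tyrobp were present in every library, and at most 1 of 14 was at 0 in a library.

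Leukocyte markers summed to 57.4 to 385 CPM in Rnf20-labelled, 155 to 584 CPM in scrambled trained and 88.2 to 155 CPM in naive libraries. In scrambled trained against naive libraries 7 of 7 tested were above 0, as were 47.2% of all genes. In Rnf20-labelled against scrambled trained libraries 7 of 7 were below 0 (median -0.63), while 50.7% of all genes were above it. At most 1 of 8 was at 0 in a library. Haemoglobin and other red cell transcripts summed to 181 to 758, 225 to 1831 and 157 to 264 CPM in Rnf20-labelled, scrambled trained and naive libraries. For scrambled trained against naive libraries 6 of 6 were above 0, with a median of 2.13. At most 1 of these 6 was at 0 in a library. At an unadjusted p under 0.05 in edgeR, 6 of 6 red cell, 5 of 7 leukocyte and 1 of 13 microglial genes were higher there, against 6.62% of all genes. For Rnf20-labelled against naive libraries these were 4 of 6, 1 of 7 and 0 of 13, against 1.21%. None had an adjusted p under 0.05 in edgeR. Choroid plexus markers ran from 87.4 to 1903 CPM in Rnf20-labelled, 11.5 to 4385 CPM in scrambled trained and 1457 to 4523 CPM in naive libraries. Of these markers, 0 of 9 were above 0 in scrambled trained against naive libraries, against 47.2% of all genes. Their sum was 11.5 and 48.6 CPM in scrambled trained replicates 5 and 16. In replicates 6, 10 and 15 it was 1467, 4385 and 2211 CPM, within the naive range. Neuron markers, 11 genes, summed to 8046 to 14032 CPM in Rnf20-labelled, 6542 to 12409 CPM in scrambled trained and 9613 to 11904 CPM in naive libraries, and none was at 0. They were lowest in scrambled trained replicate 10, Rnf20-labelled replicate 18 and scrambled trained replicate 15, at 6542, 8046 and 8414 CPM, and highest in Rnf20-labelled replicate 14, at 14032 CPM. The same 4 libraries lay at the ends of the first principal component of the tested genes without the 9, with scores of 53.5, 44.9, 40.6 and -49.1 in that order, against -26.8 to 15.6 in the other 11. Without them, the median of the 9 transcripts was -0.53 in Rnf20-labelled against scrambled trained libraries and 0.62 in scrambled trained against naive libraries. The part of these cells in the levels of the 9 transcripts was not tested.

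Other genes counted as reactive in mouse astrocytes mostly had the sign of the 9. Among those common to several injuries, Hspb1, a small heat shock protein, was at 36.2 ± 42.8 CPM in Rnf20-labelled, 66.9 ± 40.4 CPM in scrambled trained and 13.6 ± 4.53 CPM in naive libraries (SD, n = 5 each). Its log2 fold change for scrambled trained against naive libraries was 2.30 (SE 0.64), that of Cxcl10 was 2.26 (SE 0.68), which was 1.33 without scrambled trained replicate 15, and that of Aspg, an asparaginase, was 1.57. All 3 had an unadjusted p under 0.05, as had 6.62% of all genes in that direction, and none an adjusted p under 0.05 in edgeR. Of the genes named for a reaction to inflammation in mouse (A1-type), 3 of 9 were higher, against 6.62% of all genes, and 1 of 9, Amigo2, was lower (-0.35, SE 0.16), against 3.35%, at that unadjusted p. The smallest p-values were those of Gbp2 (1.15, SE 0.41) and Psmb8 (0.85, SE 0.31). Of those named for a reaction to ischaemia (A2-type), 6 of 11 were higher against the same 6.62%, with the smallest p-values for the pattern-recognition protein Ptx3 (1.43, SE 0.48) and the lipopolysaccharide co-receptor Cd14 (1.94, SE 0.68). Ptx3 was at 1.55 to 4.24 CPM in Rnf20-labelled libraries, at 16.3 CPM in scrambled trained replicate 15, at 2.21 to 4.79 CPM in the other 4 scrambled trained libraries and at 1.71 to 2.91 CPM in naive libraries. Its log2 fold change without replicate 15 was 0.60.

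In Rnf20-labelled against scrambled trained libraries, 4 of 9 A1-type genes were lower at an unadjusted p under 0.05, against 2.98% of all genes. Complement C3 was at 77.6 ± 9.98 CPM in Rnf20-labelled and 145 ± 74.0 CPM in scrambled trained libraries (SD, n = 5 each), with a log2 fold change of -0.90 (SE 0.32), which was -0.55 without scrambled trained replicate 15, and Gbp2 was at -1.11 (SE 0.41). C3 was also lower in Rnf20-labelled than in naive libraries, at -0.99 (SE 0.32), where naive libraries held 154 ± 74.0 CPM. Of the A2-type genes, 2 of 11 were lower against the same 2.98%, Clcf1, a cytokine of the interleukin 6 family (-0.75, SE 0.21), and Ptx3 (-1.26, SE 0.48). Without scrambled trained replicate 15 Ptx3 was at -0.43. None of these had an adjusted p under 0.05 in edgeR.

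Osmr signals through gp130 and STAT3. In scrambled trained against naive libraries 6 of 17 genes of that pathway were higher at an unadjusted p under 0.05, against 6.62% of all genes, and 1 of 17, the receptor gene Lifr, was lower (-0.32, SE 0.14), against 3.35%. The median was 0.39. The transcription factor genes Cebpd and Cebpb had the smallest p-values, at 0.99 (SE 0.28) and 0.78 (SE 0.23), while the fold changes of Socs3 (1.77, SE 0.74), Osm (1.43) and Lif (1.38) were larger. Socs3, the feedback inhibitor of the pathway, was named after its values were seen. It was at 0.66, 5.35, 0.33, 9.28 and 1.77 CPM in Rnf20-labelled replicates 4, 8, 14, 18 and 20, against 0.86, 3.33, 8.10, 10.7 and 3.01 CPM in scrambled trained replicates 5, 6, 10, 15 and 16, and naive libraries held 1.07 to 1.76 CPM. The libraries with the most Socs3 were those with the most Gfap in each trained group, Rnf20-labelled replicate 18 and scrambled trained replicate 15. Lyz2 of the leukocyte list (298 and 465 CPM) and Cd14 (18.3 and 27.1 CPM) were also highest there. The match is therefore not particular to this pathway. For Rnf20-labelled against scrambled trained libraries, 1 of 17 genes was higher, Lifr (0.32, SE 0.14), near the 2.63% of all genes. Of the 17, 0 were lower, against 2.98% of all genes. Cebpd was at -0.54 (SE 0.27), which was -0.32 without scrambled trained replicate 15 and -0.87 without Rnf20-labelled replicate 18.

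Other filament and cytoskeleton genes had the sign of Gfap and Vim in scrambled trained against naive libraries. Of 10 tested, 6 were higher at an unadjusted p under 0.05 in scrambled trained than in naive libraries, against 6.62% of all genes. All 10 were above 0, as were 47.2% of all genes. The smallest p-values were those of the tubulin Tubb6 (1.70, SE 0.53) and the actin-binding Tagln2 (1.18, SE 0.40), and the fold change of the calcium-binding S100a6 (1.72, SE 0.64) was slightly larger. In Rnf20-labelled against scrambled trained libraries 0 of 10 passed, with Ezr at -0.22 and Msn at -0.53, while 2.98% of all genes were lower and 2.63% higher. Of 14 scar matrix genes, 5 were higher by the same measure and against the same share, among them Spp1, which encodes osteopontin. Spp1 was at 261 ± 372 CPM in Rnf20-labelled, 413 ± 342 CPM in scrambled trained and 44.3 ± 13.7 CPM in naive libraries (SD, n = 5 each), and Fn1, which encodes fibronectin, had a log2 fold change of 1.18 (SE 0.38).

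Genes related to Timp1, to Cp and Steap4, and to S1pr3 had medians near 0 between scrambled trained and naive libraries. Each list held 1 gene that was higher at an unadjusted p under 0.05, which is near the 6.62% of all genes, and nothing is read from these counts. Among 12 metalloproteinases and their inhibitors it was Mmp19 (1.09, SE 0.34), and the median was -0.02. Among 12 iron-handling genes it was Hmox1, the haem-degrading oxygenase, at 239 ± 316 CPM in Rnf20-labelled, 476 ± 454 CPM in scrambled trained and 45.8 ± 14.7 CPM in naive libraries (SD, n = 5 each). Of these 12 genes, 3 were above 0, as were 47.2% of all genes. Among 8 genes of the sphingosine 1-phosphate pathway it was S1pr2 (0.50, SE 0.21), and 1 was lower against 3.35% of all genes, Sgpp2 (-0.39, SE 0.16). In Rnf20-labelled against scrambled trained libraries the medians of these 3 lists were -0.05, -0.03 and 0.06. No gene of any of these lists had an adjusted p under 0.05 in edgeR in any of the 3 comparisons.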

How the data were processed

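Per the labels' protocols, RNA was purified on columns from frozen dorsal CA1 and made into stranded mRNA libraries with 14 cycles of PCR. Per the submitters' processing notes, the authors used Trim Galore, FastQC, featureCounts 2.0.1, DESeq2 and the rat assembly Rnor_6.0. The sources used here do not give the aligner, annotation release or strand setting. Every value was computed from the deposited raw counts per gene, and the authors' normalised table was not used. Columns were matched to samples by the group and replicate in their names.

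In R 4.3.3, edgeR 4.0.16 kept 14880 of 22314 genes with filterByExpr (99.9% of the counts), scaled by TMM and fitted its quasi-likelihood test to all 15 libraries, with Benjamini-Hochberg adjustment over all genes tested and a threshold of 0.05. CPM use the TMM-scaled library size, and log2 CPM a prior count of 2. Levels are not compared between genes, since lengths on that assembly were not used. Ratios to astrocyte markers had exact permutation tests over libraries, 27 in all because Serpina3n had no row, in place of the 30 foreseen. Alternatives were DESeq2 1.42.0, limma-voom 3.58.1, median-ratio scaling, other filters, fits of 2 groups, libraries left out and 2 covariates. The fits were tested on simulated data.

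The 10 genes, 20 lists and tests were chosen with earlier results of these data known. The rule for named genes takes the 10 genes, Rnf20, from each list up to 4 genes past the threshold or else its 1 or 2 of smallest p as values, and for each of the 10 the gene of highest r with a mean of at least 1 CPM. Other genes were named after their values were seen. No reported interval needs a binomial count, and the intervals given come from the fit. Of the listed genes, 206 of 218 had a row.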

Additional observations from a re-analysis of the deposited data

Results flagged for a closer look

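In 27 groups of 5 libraries (9 transcripts in 3 groups), 2 held a library far from the other 4 by Dixon's test at the 95% level, which chance gives in about 1 in 20 groups. Both were naive replicate 11. Gfap was at 4167 CPM there, against 3084 CPM in the next naive library, a gap of 0.79 of the group's range. Cp was at 39.2 CPM there, against 22.5 CPM in the next, a gap of 0.83 of the range. Without that library the log2 fold changes of scrambled trained against naive libraries were 0.88 for Gfap and 1.23 for Cp. Leaving out scrambled trained replicate 15 instead gave 0.70 for Gfap and 0.56 for Cp.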

How the results depend on the processing

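The count of the 9 transcripts called in edgeR was 0 in each comparison under every alternative except DESeq2, which called 1 in scrambled trained against naive libraries. Over all genes edgeR called 0, and DESeq2 called 1 in Rnf20-labelled against scrambled trained, 1 in Rnf20-labelled against naive and 58 in scrambled trained against naive libraries. With a library left out, 0 to 1 genes were called in Rnf20-labelled against naive libraries, 1 of them without naive replicate 9.

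All 9 fold changes of scrambled trained against naive libraries stayed above 0 with single libraries left out, in the other tools, scalings and filters. Signs changed as follows. Without scrambled trained replicates 15 and 16, chosen after seeing the data, Rnf20-labelled against scrambled trained libraries gave 0.041 for Cd44, 0.19 for Osmr and 0.20 for Steap4, and scrambled trained against naive libraries gave -0.53 for Lcn2 and -0.033 for Steap4. With a microglial score as covariate, the first gave 0.14 for Cd44 and 0.31 for Osmr, and the second -0.062 for Osmr. Without the 4 libraries at the ends of the first principal component, Rnf20-labelled against scrambled trained libraries gave 0.12 for Osmr, and against naive libraries -0.12 for Cp, -0.023 for S1pr3 and -0.27 for Steap4. Steap4 in Rnf20-labelled against naive libraries was also -0.056 in limma-voom and -0.0068 with an astrocyte marker score as covariate. The cause of these changes was not tested.

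With single libraries left out, Rnf20-labelled against naive fold changes ran from -0.067 to 0.30 for Gfap, -0.26 to 0.44 for Cp, -0.13 to 0.51 for Cd44, -0.15 to 0.54 for S1pr3, -0.026 to 0.80 for Osmr, -0.41 to 0.42 for Steap4 and -0.13 to 0.51 for the median of the 9. The low ends came without Rnf20-labelled replicate 18. Osmr in Rnf20-labelled against scrambled trained libraries ran from -0.98 to 0.11, the high end without scrambled trained replicate 15.

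No paired analysis was possible because the 3 groups share no replicate numbers. Depth limits Osmr and Steap4 most, with 11 and 7 counts in their lowest libraries.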
